A study of Drosophila melanogaster with 144 samples.

Results

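The genes described here encode enzymes that make glutathione or remove reactive oxygen species in Drosophila melanogaster. They are Gclc, Gclm, Sod1, Sod2 and Cat, chosen by their FlyBase symbols, and all 5 were found among the 17381 genes of the deposited count table and passed the filter on low counts, which left 10894 genes. Their RNA was measured in heads of adult virgin flies by strand-specific poly(A) sequencing of 144 libraries, each from 150 pooled heads. The flies were males and females of DGRP_892, a long-period inbred stock from the Drosophila Genetic Reference Panel, and of Canton-S B, a line with a 24-h period whose cultures carried the w1118 eye-colour allele per the labels. Before collection all flies spent 3 days at 25 °C with 12 h of light and 12 h of darkness per day, and 3 further days in constant darkness. Collections were 2 h apart, at 12 circadian times in hours, written CT2 to CT24. Each line, sex and time had 3 libraries, from 3 runs of the collection, so that each line had 72 libraries and each line and sex had 36. Each genotype was a single stock, so a difference between the lines is a difference between these stocks and their whole genetic backgrounds.

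Glutathione is the main small thiol of the cell, and it is made in 2 steps. Glutamate-cysteine ligase carries out the first and rate-limiting step. Gclc encodes its catalytic subunit, and Gclm encodes its modifier subunit, which makes the catalytic subunit more active. Superoxide dismutases turn superoxide into hydrogen peroxide, in the cytosol by the copper and zinc enzyme of Sod1 and in mitochondria by the manganese enzyme of Sod2. Catalase, the product of Cat, breaks hydrogen peroxide down to water and oxygen. In fly heads, earlier work described daily rhythms of glutathione and of the RNA of both ligase subunits under control of the circadian clock.

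In the release 6 assembly, Gclc (FBgn0040319) lies on chromosome X at 8102181 to 8116147, and Gclm (FBgn0046114) on 3R at 22685006 to 22686510. Sod1 (FBgn0003462) lies on 3L at 11112281 to 11113740, Sod2 (FBgn0010213) on 2R at 16772785 to 16773915, and Cat (FBgn0000261), also on 3L, at 18822604 to 18828188. Cat is on the plus strand and the others are on the minus strand. All 5 are protein-coding, and their annotated spans overlap 0 other annotated genes. The strand setting of the counting (not given in the sources used here) therefore has no annotated neighbour to draw reads from at these loci.

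Libraries held between 11.7 M and 37.3 M gene counts (M is 1e6), with a median of 15.2 M. The totals fell into 2 separate classes. The 48 deeper libraries, with 25.5 M or more, were those of runs 1 and 4 of 6 runs of 24 consecutive library numbers. Both depth classes held both lines and both sexes. Marker genes followed the labels: w, the eye pigment transporter gene, stood at 29.9 ± 3.74 CPM (counts per 1e6 gene counts, after the scaling described below) in DGRP_892 and at 0.235 ± 0.139 in Canton-S B. The male dosage compensation RNA roX1 had a level of 1725 ± 247 CPM in males and 18 ± 12.5 CPM in females (SD, n = 72 each). Neuron, glia, eye, fat body, haemocyte and muscle marker lists were all detected, with 0 members at 0 in any line and sex.

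All 5 genes were well measured. The lowest raw count of any member in a library was 1265, and the highest was 35635. Levels are CPM after TMM scaling, a scaling that sets the bulk of genes equal between libraries. Divided by the exon length in kilobases, the levels ranked Cat first with 353 ± 47.9 CPM per kb. Sod1 followed with 291 ± 72.9, Sod2 with 146 ± 25.2, Gclm with 97.3 ± 19.4 and Gclc with 36.5 ± 4.21 CPM per kb (SD over 144 libraries). Cat and Sod1 differed by less than the spread of Sod1, and the other neighbours in this order differed by more than the SD of either. Among 10801 genes with a length, 98% had a lower level per kb than Cat, 97.7% than Sod1, 95.4% than Sod2, 93% than Gclm and 82.1% than Gclc. The catalytic subunit of the ligase was thus counted at a lower level per kb than its modifier subunit in each line and sex: Gclc stood at 39.1 CPM per kb in DGRP_892 males, 40.5 in DGRP_892 females, 34.3 in Canton-S B males and 32.3 in Canton-S B females, and Gclm at 80, 118.6, 86.2 and 104.5 CPM per kb in the same order.

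The members differed most in what their spread followed. Sums of squares of the log2 level were split over line, sex, their interaction, time, replicate number and run of library numbers, in that order. Line took 59% of the spread of Gclc and 32.6% of that of Sod2. Sex took 54.9% of the spread of Gclm. The runs of library numbers took 58.9% for Sod1, 41.8% for Cat and 36.2% for Sod2, but 8.99% for Gclm and 4.39% for Gclc.

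**Figure D1:**
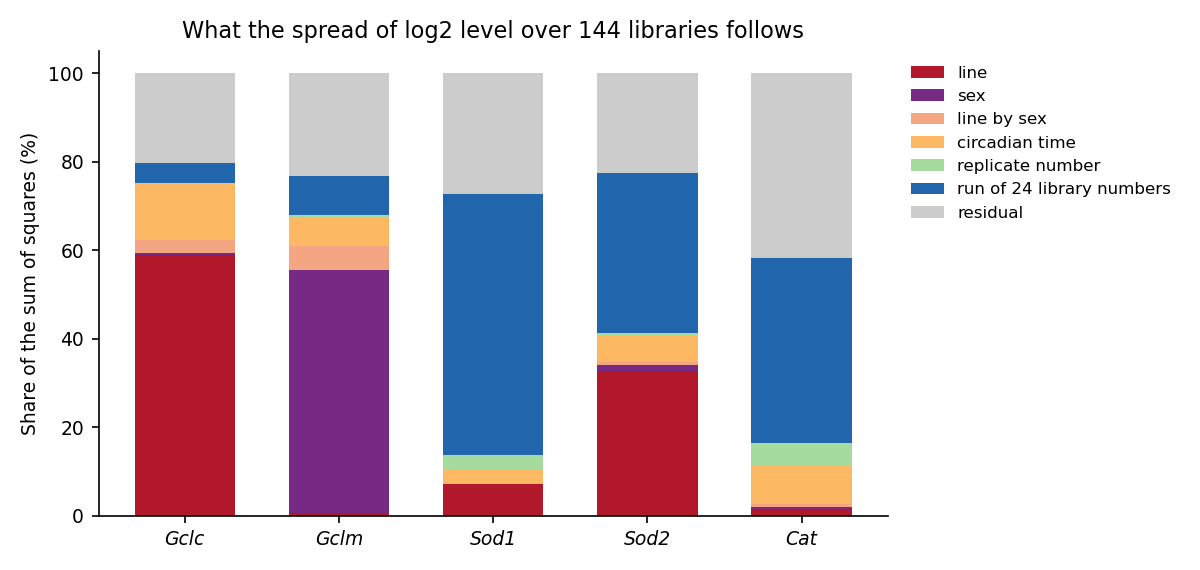
Share of the sum of squares of the log2 level over 144 libraries (%, vertical axis) for each gene, split in the order of the legend from bottom to top. Line takes 59% for Gclc, sex takes 54.9% for Gclm, and the run of 24 library numbers takes 58.9% for Sod1.

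Run means of Sod1 ranged from 152 CPM in run 1 to 273 CPM in run 6. Those of Cat ranged from 611 CPM in run 4 to 796 CPM in run 1, and those of Sod2 from 122.7 CPM in run 4 to 173 CPM in run 1. What the runs of library numbers stand for is not given in the labels, so they are named here only as numbers. Taken alone, the runs held 59.6% of the variance of Sod1, more than for 89.9% of all genes tested, whose median was 22%. Within groups of 3 libraries the coefficient of variation was 5.85% for Gclc, 12.1% for Gclm, 13.2% for Sod2, 13.9% for Cat and 23.9% for Sod1, against a median of 16% over all genes tested. A given difference was therefore easier to detect in Gclc than in Sod1.

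The first comparison asks how the long-period line differed from the 24-h line. Gclc, Sod1 and Sod2 were higher in DGRP_892 than in Canton-S B, by about 1.20-fold, 1.13-fold and 1.22-fold. Gclm and Cat did not pass the test. The count of 3 of 5 members called compares with 67.1% of all genes tested (32.7% higher and 34.4% lower in DGRP_892), so it is near the background. The sizes were moderate too: by the size of the line difference, Gclc ranked 3678 and Sod2 ranked 3351 of all genes tested.

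Gclc ranged from 150 to 190 CPM in DGRP_892 males (median 173) and from 153 to 204 CPM in DGRP_892 females (median 179). In Canton-S B it ranged from 135.6 to 171 CPM in males (median 152) and from 118.6 to 168 CPM in females (median 138.5). The libraries of the lines overlapped only between 150 and 171 CPM, and the mean of DGRP_892 was the higher one in 24 of 24 pairs of the same sex and time. The line means were 175 ± 11.5 CPM in DGRP_892 and 147 ± 12.1 CPM in Canton-S B (SD, n = 72 each). The log2 fold change, DGRP_892 over Canton-S B, was 0.26 ± 0.015 (SE; edgeR quasi-likelihood test, adjusted p = 8.48e-31).

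Sod2, the mitochondrial dismutase gene, had line means of 162 ± 21.9 CPM in DGRP_892 and 132.97 ± 20 CPM in Canton-S B. Libraries ran from 112.5 to 217 CPM in DGRP_892 and from 96.2 to 171 CPM in Canton-S B, so the lines overlapped over much of their range. DGRP_892 was higher in 21 of 24 pairs. The log2 fold change was 0.29 ± 0.033 (edgeR, adjusted p = 1.7e-13).

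Sod1, the cytosolic dismutase gene, had line means of 228 ± 53.6 CPM in DGRP_892 and 200 ± 50.3 CPM in Canton-S B. Its libraries ran from 123.9 to 379 CPM in DGRP_892 and from 114.4 to 386 CPM in Canton-S B, which is nearly the same range, and DGRP_892 was higher in 16 of 24 pairs. The log2 fold change was 0.18 ± 0.056 (edgeR, adjusted p = 0.003). Without the third replicate it was 0.11 and did not pass (adjusted p = 0.149). It also missed the threshold in the 48 deeper libraries (0.21, adjusted p = 0.101) and in the 96 shallower ones (0.12, adjusted p = 0.0814) taken alone. Of 13 alternatives, 8 kept the call and 5 lost it, which include the ERCC and total-count scalings given below.

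Gclm and Cat had closer line means. Gclm stood at 149 ± 32.8 CPM in DGRP_892 and 143.5 ± 24.9 CPM in Canton-S B, a log2 fold change of 0.04 ± 0.028 (edgeR, adjusted p = 0.236). Cat stood at 691 ± 81.9 CPM in DGRP_892 and 718 ± 106.3 CPM in Canton-S B, a log2 fold change of -0.06 ± 0.034 (edgeR, adjusted p = 0.145). DGRP_892 was higher in 14 of 24 pairs for Gclm and in 9 of 24 for Cat. In CPM without TMM scaling, it was higher in 21 of 24 pairs for Gclc, 20 for Sod2, 12 for Sod1, 9 for Gclm and 0 for Cat. Within each of the 6 runs of library numbers, DGRP_892 had the higher mean in 6 of 6 for Gclc (log2 difference 0.18 to 0.30), for Sod2 (0.22 to 0.52), for Sod1 (0.04 to 0.38) and for Gclm (0.02 to 0.06), and in 2 of 6 for Cat (-0.10 to 0.11).

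**Figure D2:**
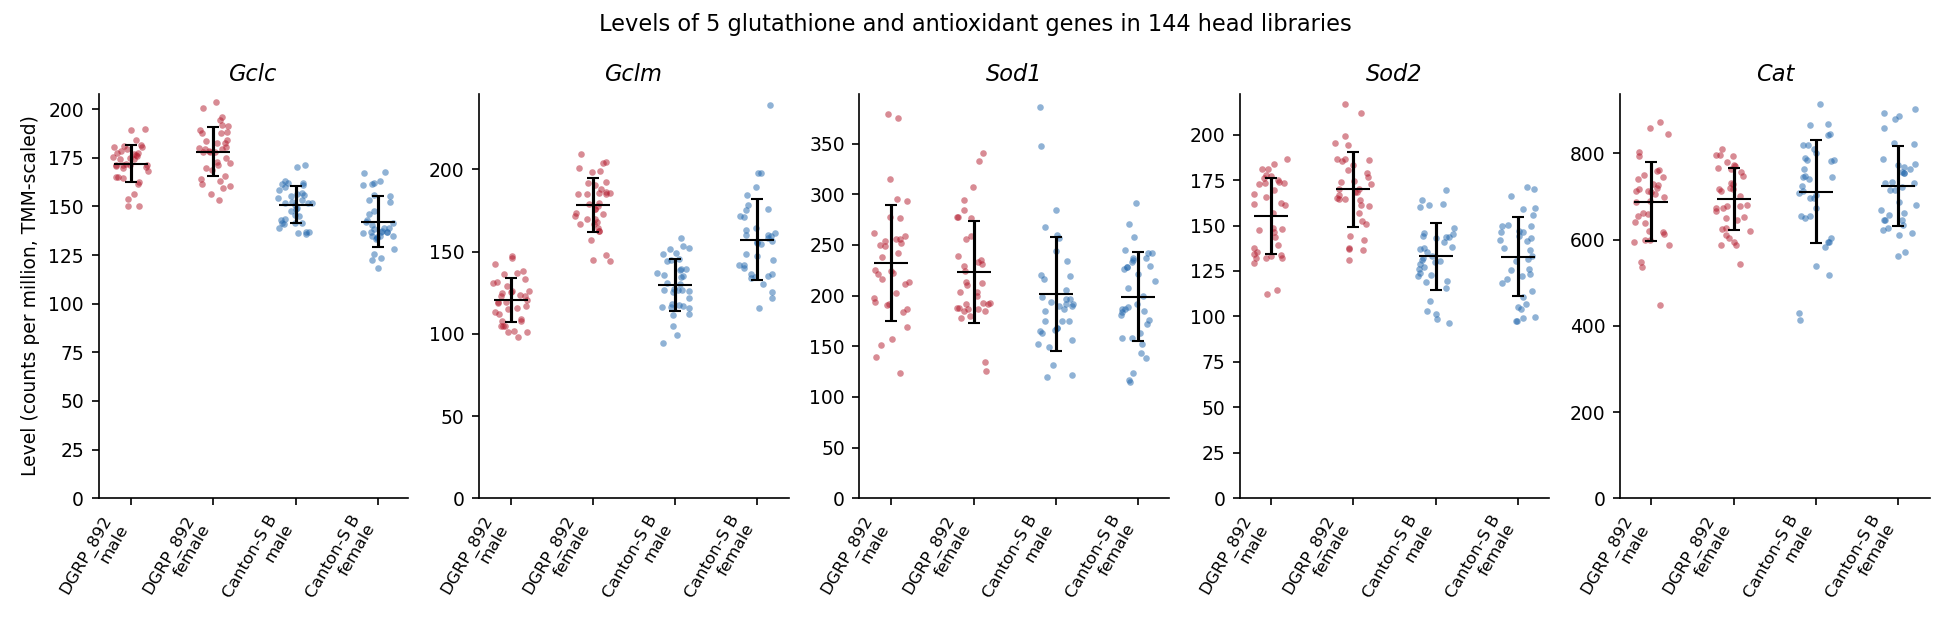
Level of each gene (TMM-scaled CPM, vertical axis from 0) in 36 libraries of each line and sex, with DGRP_892 in red and Canton-S B in blue. Points are libraries, and bars are the mean and SD: Gclc separates by line (175 against 147 CPM), Gclm by sex (125.1 in males against 168 in females), and Sod1 and Cat overlap in all 4 groups.

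The lines also differed in genes of cell types that a head contains. The fat body list was higher in DGRP_892 for 7 of its 8 genes and lower for 0, and all 6 genes of the muscle list were lower. The summed level of the fat body list ran from 11150 to 21530 CPM in DGRP_892 males and from 16960 to 33240 CPM in DGRP_892 females, against 5420 to 11460 CPM in Canton-S B males and 7851 to 15690 CPM in Canton-S B females. Whole heads were sequenced, so fewer cells of a type and less RNA per cell cannot be told apart. The part of these markers in the line differences of Gclc, Sod1 and Sod2 was not tested.

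The scaling moved the values of all genes together. With libraries scaled to their total gene counts instead of by TMM, all genes tested had a median log2 fold change of -0.14 in place of -0.01, and 24% in place of 48.7% of the called genes were higher in DGRP_892. The line difference of Gclc was then 0.13 (edgeR, adjusted p = 3.62e-10) and that of Sod2 0.16 (adjusted p = 5.28e-06), against 0.26 and 0.29 under TMM. A scaling that moves all genes alike leaves values relative to the median in place by construction: Gclc stood at 0.27 under both scalings, Sod2 at 0.30 under both, Sod1 at 0.19 under both, Gclm at 0.05 under both and Cat at -0.05 under both. With total counts, Gclm (-0.09) and Cat (-0.19) passed the test as lower in DGRP_892 and Sod1 did not pass. With libraries scaled to their ERCC spike-in counts, the line differences of Gclc (0.22, adjusted p = 0.0684), Sod2 (0.25, adjusted p = 0.0775) and Sod1 (0.14, adjusted p = 0.259) kept their direction and missed the threshold.

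The second comparison set males against females. Gclm was lower in males, at about 0.75 of the female level, and was the only 1 of the 5 members called. All genes tested were called in 65.8% of cases for sex (36.3% higher and 29.4% lower in males). In that list Gclm ranked 1676 by the size of its fold change. Gclc, Sod1, Sod2 and Cat missed the threshold.

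Gclm ranged from 97.8 to 147 CPM in DGRP_892 males (median 120.2) and from 144.1 to 209 CPM in DGRP_892 females (median 179), so these sexes overlapped only between 144.1 and 147 CPM. In Canton-S B it ranged from 94.4 to 158 CPM in males (median 129.03) and from 115.5 to 239 CPM in females (median 156), with a broad overlap. The sex means were 125.1 ± 15.3 CPM in males and 168 ± 23.5 CPM in females (SD, n = 72 each). The log2 fold change, male over female, was -0.42 ± 0.028 (edgeR, adjusted p = 1.05e-25). Females had the higher mean in 24 of 24 pairs of the same line and time, and in 6 of 6 runs of library numbers (log2 difference -0.47 to -0.36).

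Gclc averaged 161 ± 14.3 CPM in males and 160 ± 22 CPM in females, a log2 fold change of 0.02 ± 0.015 (edgeR, adjusted p = 0.229). That of Sod1 was 0.03 ± 0.056 (adjusted p = 0.638), that of Sod2 -0.06 ± 0.033 (adjusted p = 0.0784) and that of Cat -0.02 ± 0.034 (adjusted p = 0.592). With the run of library numbers as a block, Sod1 (0.08, adjusted p = 0.0233) and Sod2 (-0.06, adjusted p = 0.0202) passed the test. With scaling by total gene counts the median of all genes tested was 0.19 in place of 0.03, and 82.2% in place of 55.3% of the called genes were higher in males. On that scaling Gclc (0.18), Sod1 (0.19), Sod2 (0.09) and Cat (0.14) passed as higher in males. The sex difference of Gclm was smaller with total counts, at -0.26 (edgeR, adjusted p = 2.29e-13), and with ERCC scaling, at -0.22 (adjusted p = 0.0472). Relative to the median of all genes it stood at -0.45 under TMM, under total counts and with ERCC scaling. This must be so when a scaling moves all genes alike. With ERCC scaling that median was 0.231.

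Fat body markers were lower in males for 7 of 8 genes and higher for 1, haemocyte markers were lower for 5 of 5, and neuron markers were higher for 6 of 6. The summed level of the haemocyte list ran from 311 to 532 CPM in DGRP_892 males and 373 to 896 CPM in DGRP_892 females, and from 253 to 583 CPM in Canton-S B males and 534 to 1042 CPM in Canton-S B females. The part of these markers in the sex difference of Gclm was not tested.

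In the main fit, the line difference differed between the sexes at the threshold for both subunits of glutamate-cysteine ligase. These were the 2 of 5 members called for the interaction of line and sex, against 12.7% of all genes tested. The interaction of Sod2 was of the same size as that of Gclc (-0.14 in each). Sod2 had the larger SE (0.065 against 0.030) and was not called. Gclc was higher in DGRP_892 in both sexes and by more in females. By the tests within each sex, Gclm was higher in DGRP_892 females than in Canton-S B females, and lower in DGRP_892 males than in Canton-S B males, and both calls depended on the setting as given below.

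Gclc averaged 172 ± 9.62 CPM in DGRP_892 males and 151 ± 9.54 CPM in Canton-S B males, a log2 fold change of 0.19 ± 0.021 (edgeR, adjusted p = 1.11e-13). In females it averaged 178 ± 12.6 CPM in DGRP_892 and 142.2 ± 12.9 CPM in Canton-S B, a log2 fold change of 0.33 ± 0.021 (adjusted p = 4.88e-27). The line effect in males minus that in females was -0.14 ± 0.030 (adjusted p = 0.000387). It was -0.11 without the third replicate (adjusted p = 0.128), -0.14 in the deeper libraries (adjusted p = 0.516) and -0.04 with scaling by total counts (adjusted p = 0.416), and did not pass in these 3 or with ERCC scaling (-0.23, adjusted p = 1).

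Gclm averaged 120.5 ± 13.4 CPM in DGRP_892 males and 129.8 ± 15.8 CPM in Canton-S B males, a log2 fold change of -0.11 ± 0.040 (edgeR, adjusted p = 0.0162). In females it averaged 178 ± 16.5 CPM in DGRP_892 and 157 ± 24.8 CPM in Canton-S B, a log2 fold change of 0.19 ± 0.040 (adjusted p = 3.41e-05). The male difference did not pass without the first replicate (-0.10, adjusted p = 0.131), without the second (-0.09, adjusted p = 0.131), in the deeper libraries (-0.07, adjusted p = 0.508), in the shallower ones (-0.10, adjusted p = 0.0532) or with ERCC scaling (-0.19, adjusted p = 0.393). The female difference was 0.01 with scaling by total counts (edgeR, adjusted p = 0.891) and did not pass with ERCC scaling (0.17, adjusted p = 0.451). The difference of these effects was -0.29 ± 0.057 (adjusted p = 4.96e-05). It did not pass in the deeper libraries alone (-0.24, adjusted p = 0.513) or with ERCC scaling (-0.36, adjusted p = 1). Put the other way, the male over female log2 fold change of Gclm was -0.57 ± 0.040 in DGRP_892 and -0.27 ± 0.040 in Canton-S B (adjusted p = 5.25e-24 and 5.33e-09). With ERCC scaling that of Canton-S B was -0.04 and did not pass (edgeR, adjusted p = 0.835). That scaling moved the sex differences of all genes up, to a median of 0.231 over both lines.

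Within males, 4 of 5 members were called for line, against 54.9% of all genes tested, and within females 3 of 5, against 59.9%. With the run of library numbers as a block all 5 were called in females, Sod1 at 0.23 (edgeR, adjusted p = 1.71e-05) and Cat at -0.08 (adjusted p = 0.0425). That block also raised the calls over all genes: for line over both sexes, 8013 of 10894 genes were called in place of 7310. The share of all genes called within females under the block is not given here, so the count of 5 has no background beside it. Sod1 had a log2 fold change of 0.20 ± 0.079 in males (edgeR, adjusted p = 0.0233) and 0.16 ± 0.079 in females (adjusted p = 0.075). The male call of Sod1 was lost in 6 of 13 alternatives: without the second replicate (edgeR, adjusted p = 0.0898), without the third (0.175), in the deeper (0.252) and the shallower libraries (0.0879), with ERCC scaling (0.524) and with total counts (0.204). In females Sod1 passed under the run block above, in the authors' batch-corrected values (0.20, limma, adjusted p = 0.000683) and without the second replicate (0.27, edgeR, adjusted p = 0.0166). Sod2 had 0.22 ± 0.046 in males (adjusted p = 2.38e-05) and 0.36 ± 0.046 in females (adjusted p = 4.82e-11). With ERCC scaling 0 of the within-sex line calls of Gclc, Gclm, Sod1 and Sod2 passed. The line effects of Sod1 and Sod2 did not differ between the sexes at the threshold (Sod1 0.04 ± 0.112, adjusted p = 0.876, and Sod2 -0.14 ± 0.065, adjusted p = 0.168).

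Within DGRP_892, 3 of 5 members were called for sex, against 56.7% of all genes tested, and within Canton-S B 2 of 5, against 55%. Beside Gclm, Gclc was called in both lines, at -0.05 ± 0.021 in DGRP_892 (adjusted p = 0.0442; 0.16, and so higher in males, with scaling by total counts) and 0.09 ± 0.021 in Canton-S B (adjusted p = 0.0002). The DGRP_892 call of Gclc held in 5 of 13 alternatives. It was lost with DESeq2 size factors (edgeR, adjusted p = 0.0563), without a filter on low counts (0.0568), in the deeper (0.209) and shallower libraries (0.0548), and without the first replicate (0.183) or the third (0.239), and its sign turned with ERCC scaling. The Canton-S B call was lost without the third replicate (0.07, edgeR, adjusted p = 0.0649) and in the deeper libraries (0.07, adjusted p = 0.265). Sod2 was called in DGRP_892, at -0.13 ± 0.046 (adjusted p = 0.0105; 0.07 with scaling by total counts, which turned its sign, as did ERCC scaling). It missed the threshold without the first replicate (-0.10, edgeR, adjusted p = 0.0619), without the second (-0.13, adjusted p = 0.0745) and in the deeper libraries (-0.16, adjusted p = 0.284).

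**Figure D3:**
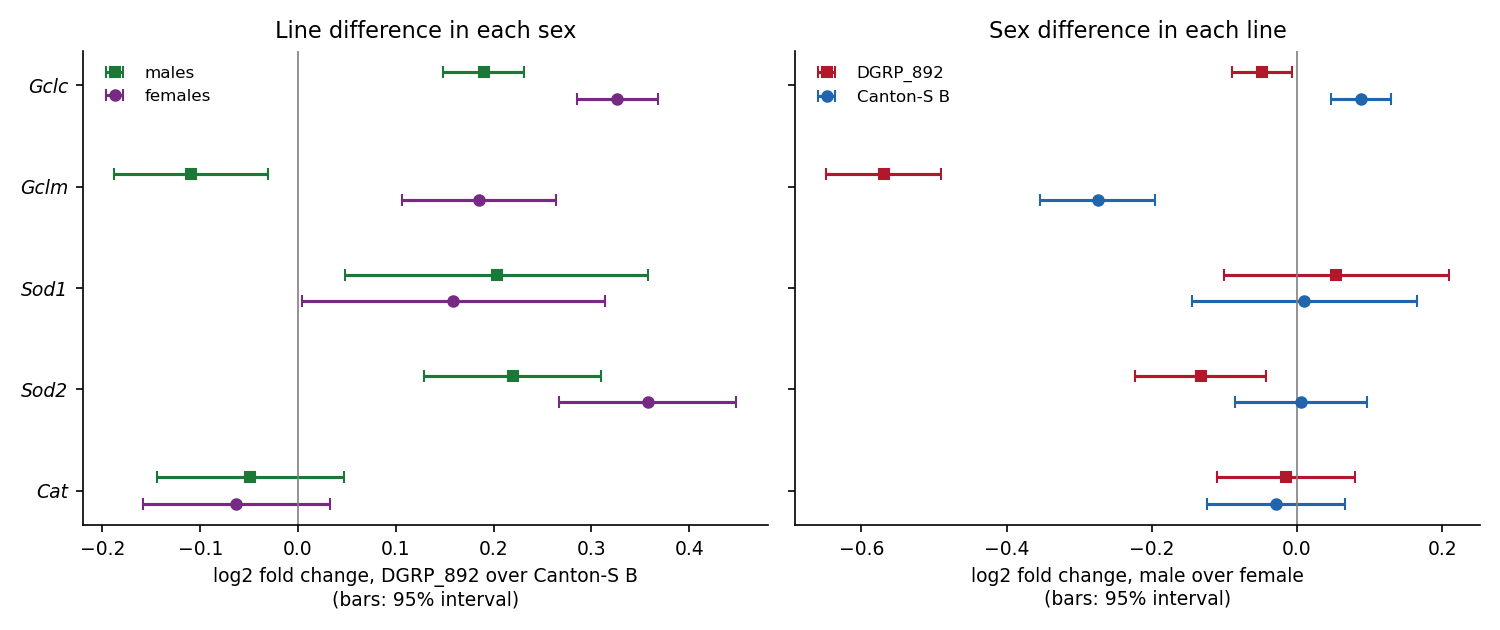
Log2 fold change of each gene, DGRP_892 over Canton-S B in males and females (left) and male over female in each line (right), with 95% intervals from the edgeR standard error. The line effect of Gclm is -0.11 in males and 0.19 in females. The sex differences of Gclc (-0.05) and Sod2 (-0.13) in DGRP_892 turn positive when libraries are scaled to total counts.

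The third question was whether the members had a daily course. In Canton-S B, Gclc showed a 24-h rhythm of small amplitude with a fitted peak at CT 4.85, and it was the 1 of 5 members called, against 6.06% of all genes tested. In DGRP_892, 0 of 5 were called, against 0.477% of all genes tested, so few genes of any kind were called in that line. A 24-h cosine was fitted in both lines, although DGRP_892 is a long-period line. Of the 4 clock genes per, tim, Clk and vri, 4 were called in Canton-S B and 1, Clk, in DGRP_892 (edgeR, adjusted p = 0.008). There per (adjusted p = 0.056), tim (0.235) and vri (0.423) missed the threshold. A missed call in DGRP_892 therefore does not show that a gene lacks a daily course. At an unadjusted p under 0.05, 2 of the 5 members passed in DGRP_892 by edgeR (Gclc and Gclm), and DESeq2 called 0 with 2 at an unadjusted p under 0.05. By edgeR p, Gclc ranked 670 and Gclm 902 of 10894 genes tested. In Canton-S B, 3 members passed at that level by edgeR: Gclc, Sod2 and Cat, ranked 49, 1677 and 1798. The shares of all genes at that level are not given here, so these counts have no background beside them.

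Mean Gclc in Canton-S B was highest at CT4, with 162 ± 3.66 CPM, and lowest at CT16, with 132.1 ± 8.63 CPM (SD, n = 6 libraries of both sexes). From CT2 to CT8 its means lay between 152 and 162 CPM, and from CT16 to CT22 between 132.1 and 140.8 CPM. The amplitude, which is the log2 distance from the mean to the peak of the fitted cosine, was 0.10 (edgeR, adjusted p = 2.68e-06). Females had an amplitude of 0.13 (adjusted p = 5.78e-05, against 3.54% of all genes called) and males one of 0.07 (adjusted p = 0.0692, against 4.59%). Gclc ranked 49 by p among all genes tested and 2894 by amplitude. It did not pass in the 48 deeper libraries alone (0.12, adjusted p = 0.0959) or with ERCC scaling (0.11, adjusted p = 1).

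In DGRP_892 the Gclc means ran from 163 ± 6.88 CPM at CT18 to 184 ± 11.2 CPM at CT6, with a fitted amplitude of 0.04 and a peak at CT 4.58 (edgeR, adjusted p = 0.392). The mean of DGRP_892 exceeded that of Canton-S B at every one of the 12 times. The interaction of line and time called 0 of 5 members, against 0.174% of all genes tested. In the edgeR test Gclc alone among them was under 0.05 before adjustment (adjusted p = 0.956), and DESeq2 also called 0, with 1 under 0.05 before adjustment. By edgeR p for this interaction, Gclc ranked 398 of 10894 genes tested. A rhythm past the threshold in Canton-S B and not in DGRP_892 was thus not a difference that passed its own test.

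The same was asked of series of 12 libraries, 1 for each replicate number and sex. Gclc amplitudes ran from 0.03 to 0.08 in the 6 series of DGRP_892 and from 0.07 to 0.15 in the 6 of Canton-S B, with means of 0.06 ± 0.024 and 0.11 ± 0.032 (SD, n = 6 each). The difference was -0.05 (two-sided exact permutation test over all splits of the 12 series, p = 0.0152; adjusted over the 5 members, p = 0.076). The other 4 members gave adjusted p values from 0.243 to 0.647 in the same exact test. Its splits ignored sex and replicate number. The 12 series were thus treated as independent units, although male and female series shared replicate numbers. The circular mean of the Gclc peak times was CT 5.9 in DGRP_892 and CT 4.95 in Canton-S B.

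Gclm, Sod1, Sod2 and Cat missed the rhythm threshold in both lines. In Canton-S B, Sod2 had an amplitude of 0.09 with a peak at CT 19.3 (edgeR, adjusted p = 0.247), and Cat one of 0.08 with a peak at CT 18.2 (adjusted p = 0.266). The means of Sod2 ran from 113.8 ± 11.4 CPM at CT8 to 150 ± 18.1 CPM at CT16. Those of Cat ran from 633 ± 128.2 CPM at CT4 to 768 CPM at CT20. With the run of library numbers as a block, both passed (Sod2 0.08, adjusted p = 0.0113; Cat 0.08, adjusted p = 0.0494), and Sod2 also passed in the authors' batch-corrected values (0.09, limma, adjusted p = 0.0474). Gclm in Canton-S B had an amplitude of 0.03 (adjusted p = 0.849) and Sod1 one of 0.02 (adjusted p = 0.982).

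In DGRP_892, Gclm had an amplitude of 0.08 with a peak at CT 17.4 (edgeR, adjusted p = 0.423), Sod1 one of 0.08 (adjusted p = 0.652), Sod2 one of 0.06 (adjusted p = 0.555) and Cat one of 0.05 (adjusted p = 0.635). For time by sex, 0 of 5 members were called by edgeR, against 0.376% of all genes tested, with 0 at an unadjusted p under 0.05 by edgeR and by DESeq2.

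**Figure D4:**
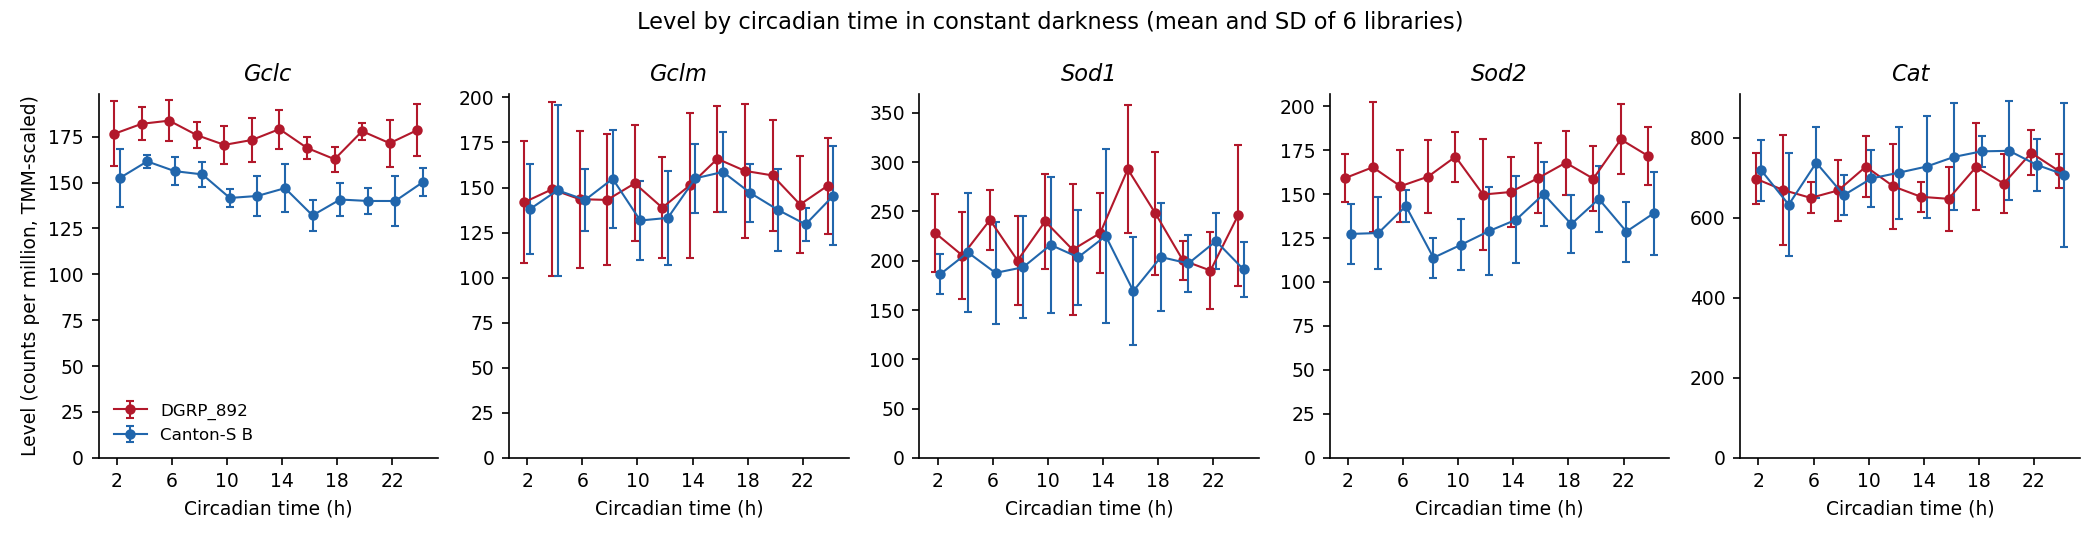
Mean level (TMM-scaled CPM, vertical axis from 0) by circadian time in hours, in DGRP_892 (red) and Canton-S B (blue), with bars for the SD of 6 libraries (3 of each sex). Gclc in Canton-S B is highest at CT4 (162 CPM) and lowest at CT16 (132.1 CPM), and DGRP_892 lies above it at all 12 times.

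Because Gclc and Gclm encode subunits of 1 enzyme, their levels were correlated across libraries within each line and sex (n = 36 each). Pearson's r was -0.21 in DGRP_892 males, 0.01 in DGRP_892 females, -0.24 in Canton-S B males and 0.22 in Canton-S B females. Spearman's rho was -0.29, -0.03, -0.27 and 0.14 in the same order. Over the 4 groups, adjusted p values were 0.308 to 0.948 for r and 0.236 to 0.885 for rho (two-sided permutation test, 100000 permutations). Without the 2 libraries farthest from the Gclc median, r was -0.16, -0.06, -0.21 and 0.23. The depth classes differed in sign in both female groups: r was 0.55 in the 10 deeper and -0.21 in the 26 shallower DGRP_892 female libraries, and -0.06 in the 15 deeper and 0.35 in the 21 shallower Canton-S B ones. Without TMM scaling this was not so: r was 0.16 and 0.02 in the deeper and shallower DGRP_892 females and 0.17 and 0.15 in those of Canton-S B, and over each whole group r was 0.10 in DGRP_892 males, 0.18 in DGRP_892 females, 0.02 in Canton-S B males and 0.23 in Canton-S B females (adjusted permutation p from 0.576 to 0.904).

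Over the 48 group means, which share the lines, sexes and libraries, Gclc and Sod2 had a Pearson r of 0.60, and Gclc and Gclm one of 0.10. After each line's mean was taken out of the 24 means by line and time, r was 0.69 for Sod2 and Cat. That of Gclc and Cat was -0.61, and both are given as descriptions. The runs of library numbers were taken out of neither set of means. These runs took 36.2% of the sum of squares of Sod2 and 41.8% of that of Cat, and both genes were highest in run 1 and lowest in run 4. The part of the runs in these correlations was not tested. Over all genes tested, the patterns most like that of Gclc across the 48 groups were those of Tbc1d8-9 (r = 0.92), CG16926 (0.91) and Cyp309a1 (0.90). Those most like Gclm were RpL18 (0.91), RpL19 (0.91) and ppl (0.91). For Sod1 they were Cisd2 (0.94), CG8818 (0.93) and Urod (0.92), and for Sod2 mRpL50 (0.93), GstE12 (0.91) and nec (0.91). Cat had no gene as close, with CG13082 (0.75), Pp2A-29B (0.73) and trh (0.71) at the top. The daily course of Gclc over the 24 means by line and time was most like those of ced-6 (r = 0.82), CG9784 (0.81) and SCAP (0.81).

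Other genes of glutathione and redox metabolism were taken from 6 lists with 32 genes. Gss2 and Trxr2 did not pass the filter and Prx5 was listed at 0 in all libraries, which left 29. For line, 25 of the 29 were called, 16 higher and 9 lower in DGRP_892, with a median log2 fold change of 0.09 against -0.01 over all genes. For sex, 19 were called, 7 higher and 12 lower in males, with a median of -0.04 against 0.03 over all genes. The shares called for line (67.1%) and sex (65.8%) over all genes are the background to these counts. With scaling by total counts, 7 were called higher and 12 lower in DGRP_892, and 20 higher and 6 lower in males. Of the calls above, 6 changed sign on that scaling for line (Ccs, Txl, foxo, Prx3, Prx2 and cnc) and 4 for sex (Txl, foxo, gb and cnc).

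Of the 6 tested genes for glutathione supply and recycling, 1 was higher and 3 were lower in DGRP_892. gb, which encodes a subunit of the cystine and glutamate exchanger family, stood at 22.8 ± 2.73 CPM in DGRP_892 and 41.7 ± 6.08 CPM in Canton-S B (log2 fold change -0.87 ± 0.029, edgeR adjusted p = 1.13e-49). Ggt-1, a gamma-glutamyl transpeptidase gene for the breakdown of glutathione, was lower by 0.49 on the log2 scale (-0.49 ± 0.042, adjusted p = 1.21e-19), with 23.4 ± 4.4 CPM in DGRP_892 and 33.3 ± 8.34 CPM in Canton-S B. Cth, which makes cysteine from cystathionine, was higher in DGRP_892 (0.25 ± 0.023, adjusted p = 4.93e-18) and lower in males (-0.41 ± 0.023, adjusted p = 4.62e-32). Cbs, which acts before it in the same pathway, was higher in males (0.22 ± 0.035, adjusted p = 2.01e-08). The glutathione synthase genes Gss1 and Gss2 are near-identical copies. Gss1 stood at 0.175 CPM in DGRP_892 and 0.2 CPM in Canton-S B, and Gss2 at 0.0616 and 0.113 CPM. Reads that match both copies may be split between them or left uncounted, and how they were handled is not known here. These values may therefore not measure the levels of the genes.

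Of 10 tested genes for removal of peroxides, 6 were higher and 3 lower in DGRP_892, and 0 were higher and 6 lower in males (with scaling by total counts, 1 higher and 4 lower, and 5 higher and 3 lower). Irc, a catalase-like immune peroxidase gene, stood at 360 ± 65.2 CPM in DGRP_892 and 256 ± 57.2 CPM in Canton-S B (0.50 ± 0.035, edgeR adjusted p = 9.08e-25). Gtpx, a glutathione peroxidase family gene, was higher in DGRP_892 by 0.21 (adjusted p = 1.21e-07). The peroxiredoxin gene Prx6a (-0.47, adjusted p = 1.99e-19) and the thioredoxin gene Trx2 (-0.23, adjusted p = 1.49e-05) were lower. Prx3, the mitochondrial peroxiredoxin gene, stood at 57.2 ± 4.88 CPM in males and 74.1 ± 8.61 CPM in females (-0.37 ± 0.021, adjusted p = 2.99e-31).

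Among the superoxide dismutase partners, Sod3, the extracellular dismutase gene, was lower in DGRP_892, at 95.8 ± 10.1 CPM against 141.4 ± 17.4 CPM in Canton-S B (-0.56 ± 0.024, edgeR adjusted p = 1.06e-40). Its line difference was thus opposite in sign to those of Sod1 and Sod2. Ccs, the copper chaperone gene for Sod1, had a log2 fold change of 0.11 ± 0.034 (adjusted p = 0.00412), which missed the threshold without the second replicate (0.08, adjusted p = 0.0828) and was -0.03 with scaling by total counts.

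Of the 5 stress regulators, 4 were higher and 1 was lower in DGRP_892, and 1 was higher and 3 were lower in males (with scaling by total counts, 1 higher and 2 lower, and 4 higher and 1 lower). Keap1, which holds the antioxidant transcription factor of cnc in check, was higher in DGRP_892 (0.30 ± 0.019, edgeR adjusted p = 7.18e-28) and in males (0.24 ± 0.019, adjusted p = 1.89e-21). maf-S, the small Maf partner of that factor, was lower in DGRP_892 (-0.35 ± 0.041, adjusted p = 4.35e-13). Sesn, the sestrin gene, was lower in males, with 147 ± 20 CPM against 195 ± 28.5 CPM in females (-0.40 ± 0.030, adjusted p = 1.25e-22).

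Of the 4 genes for NADPH supply, 2 were higher and 1 was lower in DGRP_892. Zw (0.27 ± 0.032, edgeR adjusted p = 1.85e-12) and Pgd (0.34 ± 0.055, adjusted p = 3.98e-08), the dehydrogenase genes of the pentose phosphate pathway, were higher, and Men, the malic enzyme gene, was lower (-0.31 ± 0.045, adjusted p = 2.94e-09). Both genes for repair of oxidised methionine were higher in DGRP_892 and in males. SelR had a log2 fold change of 0.66 ± 0.029 for line (edgeR, adjusted p = 1.27e-39), and MsrA differed by 0.28 (adjusted p = 5.13e-11). Their sex differences were smaller (SelR 0.07, adjusted p = 0.0203, and MsrA 0.12, adjusted p = 0.00335). That of SelR missed the threshold without the first replicate (0.06, adjusted p = 0.172) and without the second (0.08, adjusted p = 0.0575), and that of MsrA without the third (0.07, adjusted p = 0.2).

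With ERCC scaling, several of these calls were lost. For line they were those of Cth (0.21, edgeR, adjusted p = 0.111), Gtpx (0.17, adjusted p = 0.149), Ccs (0.07, adjusted p = 0.588), Sesn (0.14, adjusted p = 0.382), Zw (0.23, adjusted p = 0.0657) and MsrA (0.22, adjusted p = 0.0691). For sex they were those of Cth (-0.20, edgeR, adjusted p = 0.0864), Prx3 (-0.17, adjusted p = 0.109), Irc (-0.05, adjusted p = 0.635) and Sesn (-0.20, adjusted p = 0.124). Gtpx also missed the threshold for line with total counts (0.08, edgeR, adjusted p = 0.0515). In the deeper libraries alone, the line call of Ccs (adjusted p = 0.121) and the sex calls of MsrA (0.628) and SelR (0.371) were lost, as was the line call of Ccs in the shallower ones (edgeR, adjusted p = 0.157).

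**Figure D5:**
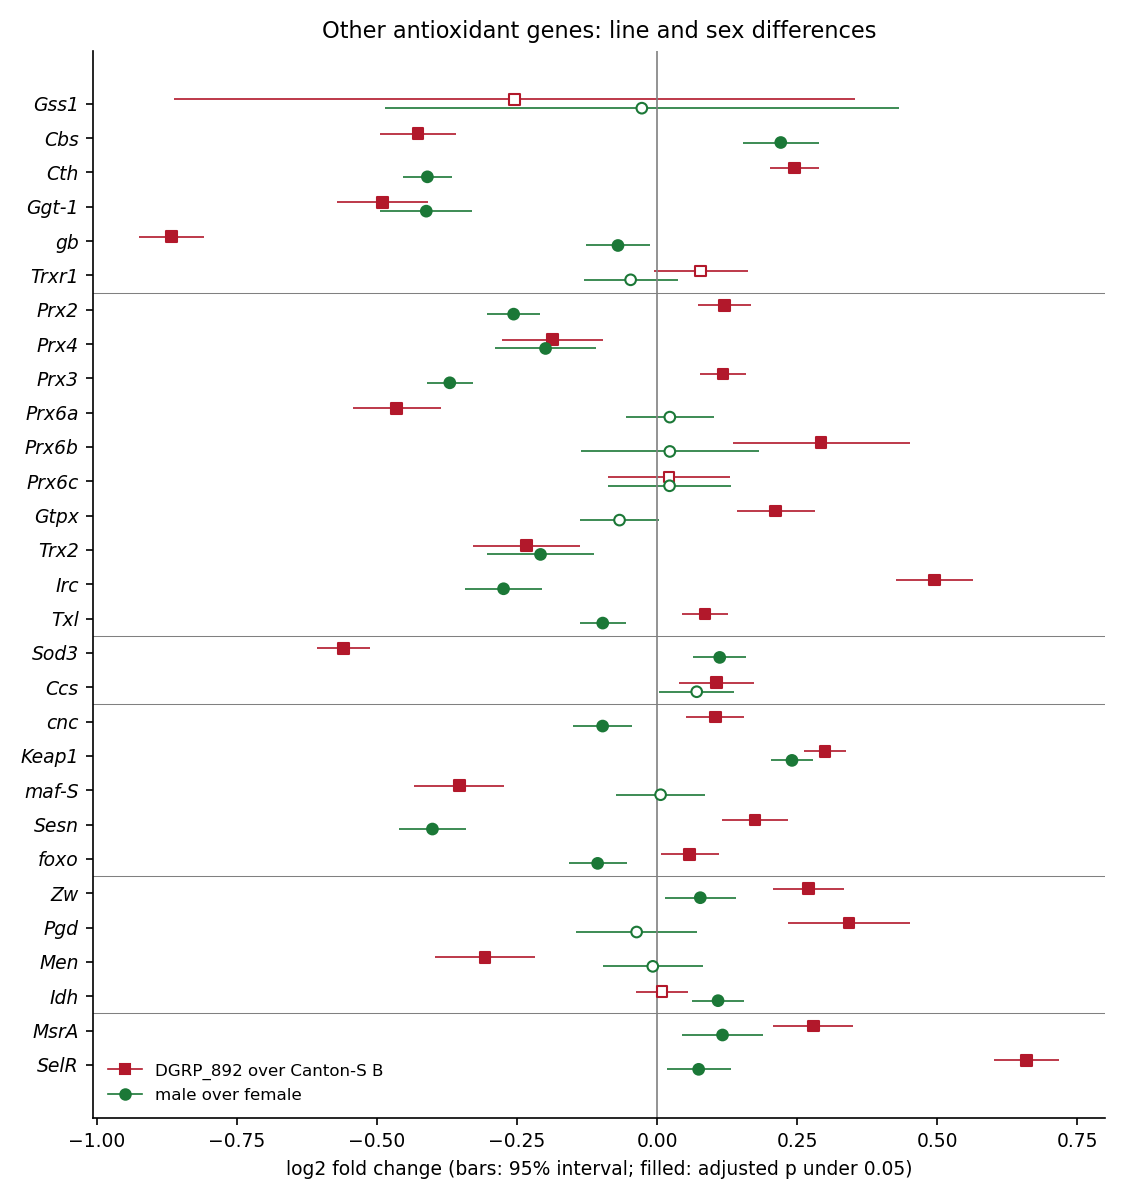
Log2 fold change of the 29 tested genes of the 6 lists, DGRP_892 over Canton-S B (red squares) and male over female (green circles), with 95% intervals, and filled symbols where the adjusted p is under 0.05. For line 16 are called higher and 9 lower, with gb (-0.87) and SelR (0.66) at the ends, and for sex 7 are called higher and 12 lower. With scaling by total counts the splits are 7 and 12 for line and 20 and 6 for sex.

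For a 24-h rhythm in Canton-S B, 3 of the 29 were called, against 6.06% of all genes tested. They were Sod3 (amplitude 0.11, edgeR adjusted p = 0.0031), gb (0.12, adjusted p = 0.014) and Prx6c (0.21, adjusted p = 0.0218). Prx6c and Prx6b are near-identical copies, so reads that match both may be split between them or left uncounted. Without the third replicate, all 3 missed the threshold (Sod3 adjusted p = 0.0541, gb 0.464 and Prx6c 0.234). Sod3 (adjusted p = 0.218) and gb (0.0775) also missed it without the first, and Prx6c (0.221) without the second. All 3 also missed it in the deeper libraries alone, in the shallower ones alone and with ERCC scaling (edgeR, adjusted p from 0.0681 to 1). In DGRP_892, 0 of the 29 were called by edgeR, against 0.477% of all genes tested, with 4 at an unadjusted p under 0.05, and DESeq2 also called 0. The share of all genes at that unadjusted level is not given here, so the count of 4 has no background beside it.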

How the data were processed

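The authors deposited raw read counts for 17381 genes and 92 ERCC spike-in transcripts, which took 0.387% of the counts and were left out. Its 1 empty column was not used. The submitters' processing notes name STAR 2.5.3a and featureCounts 1.5.2, and per the labels reads were mapped to FlyBase release 6. A second deposited table of batch-corrected, normalized values, treated as a score because some lie below 0, served as an alternative (below 0 set to 0, log2(value + 20), limma-trend). No source used here says how the authors corrected for batches. Names, coordinates and exon lengths came from the Ensembl annotation of the release 6 assembly.

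Genes were kept by filterByExpr on 48 groups of 3 (minimum count 10, minimum total 15), which left 10894. The main tests were edgeR 4.0.16 in R 4.3.3: TMM scaling, robust glmQLFit and glmQLFTest on all 144 libraries, with Benjamini-Hochberg adjustment over all genes tested and a threshold of 0.05. Contrasts of the group means gave line, sex and line by sex. For rhythms the model had a 24-h cosine and sine for each line and sex, as a pair of coefficients averaged over the sexes. The deeper libraries held 35 of the 48 groups and the shallower ones 45. In each of these classes alone, the line and sex means of the cosine model gave line, sex and line by sex. Series amplitudes were least-squares cosines on log2 CPM with a prior count of 2. Levels are TMM-scaled CPM. Alternatives were DESeq2 1.42.0, other scalings, limma 3.58.1, filters, blocks, depth classes, replicates left out and other time models. The tests were run on simulated counts drawn independently for each library, without effects of run or replicate. That check therefore does not cover the spread between runs of library numbers in these data.

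The 5 members, the lists and the tests were chosen with earlier results of these data known. All members are named. From each list, the 2 highest and 2 lowest called fold changes with at least 5 CPM were eligible for line and for sex, and the 3 lowest adjusted p values for rhythms. The replicate numbers were checked for pairing: samples with the same number deviated together with r over 0.1 in 29 of 72 pairs, and no block entered the main fits. In the same check 47 of 72 correlated best with their own number, and a replicate block was run as an alternative. Precision of a log2 fold change is given as its SE, over libraries that cover biological replicates of pooled heads. The SD of a level describes the spread over libraries. Over a line or a sex it also holds differences between the sexes or lines, the times and the runs of library numbers.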

Additional observations from a re-analysis of the deposited data

Results flagged for a closer look

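The line difference of both ligase subunits differed between the sexes by the test of the interaction. For Gclc the log2 effect of line in males minus that in females was -0.137, and for Gclm it was -0.295. For Sod2 it was -0.138 and did not pass (edgeR, adjusted p = 0.168). In the 6 series of DGRP_892, Gclm had 1 series whose amplitude, 0.19, stood far above the others by Dixon's test. It was that of males of the first replicate. In all, 10 sets of 6 series were examined, and chance gives such a value in about 1 set in 20.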

How the results depend on the processing

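Precision was limited mainly by spread between libraries, since every member had at least 1265 counts in each. Shares below are percentages of all genes tested. With ERCC scaling, whose spread is larger, the log2 line differences of Gclc (0.218), Sod1 (0.142) and Sod2 (0.249), the interactions of Gclc (-0.228) and Gclm (-0.362) and the Canton-S B rhythm of Gclc (0.113) missed the threshold, and the sex differences of Gclc (0.223) and Sod1 (0.206) passed it. The share called was then 33.5% for line, 0.991% for line by sex, 0.34% for the Canton-S B rhythm and 0.0275% for line by time, with 14 list genes called for line, 12 for sex and 0 for that rhythm. The sex difference in DGRP_892 turned positive for Gclc (0.109) and Sod2 (0.0256), and that of foxo over both lines became 0.106. Over all genes tested, the median sex difference was 0.231 with ERCC scaling, and 86.4% of the called genes were higher in males. Relative to that median, Gclc stood at -0.008, Sod1 at -0.025 and Sod2 at -0.092, so the calls of Gclc and Sod1 lay near the shift of all genes.

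With scaling by total gene counts, chosen after seeing the data, line differences were -0.0926 for Gclm, 0.0505 for Sod1, -0.188 for Cat and -0.0254 for Ccs. Sex differences were 0.178 for Gclc, 0.192 for Sod1, 0.0944 for Sod2, 0.136 for Cat and 0.0516 for foxo. Within DGRP_892 they were 0.157 for Gclc, 0.0724 for Sod2 and 0.19 for Cat. The Gclc interaction was -0.0411, and 24.5% of genes were called for line by sex. The shift of all genes together, given with the results, moves these values by construction.

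In the deeper libraries alone, the line difference of Sod1 (0.213), the interactions of Gclc (-0.135) and Gclm (-0.236) and the Gclc rhythm (0.115) missed the threshold. The share called was 40.2% for sex, 0.606% for line by sex, 0.147% and 0.633% for rhythms in DGRP_892 and Canton-S B, 0.0275% for line by time and 0% for sex by time, with 11 list genes for sex and 0 for the Canton-S B rhythm. In the shallower ones, Sod1 missed it for line (0.116), while Cat for line (-0.0817) and Sod2 for sex (-0.0766) passed. The share called was 0.0918% and 1.93% for the rhythms, 0.0826% for line by time and 0.00918% for sex by time, with 0 list genes for the Canton-S B rhythm. Fewer libraries entered these fits, and their line, sex and interaction values came from the means of the cosine model.

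With the run of library numbers as a block, sex differences of Sod1 (0.0837) and Sod2 (-0.0568) and Canton-S B rhythms of Sod2 (0.084) and Cat (0.082) passed. Then 11.9% of genes and 6 list genes were called for that rhythm, and 0.321% for line by time. In the authors' batch-corrected values Sod2 passed for sex (-0.0795) and for that rhythm (0.0862), with 0.121% called for the DGRP_892 rhythm, 0% for sex by time and 5 list genes for the Canton-S B rhythm. Without a filter on low counts, 1.68% were called for the DGRP_892 rhythm, 0.477% for line by time, 2.98% for sex by time and 5 list genes for the Canton-S B rhythm. With 12 free time levels 0.00918% were called for line by time, and with 24-h and 12-h waves 0.229% for the DGRP_892 rhythm and 0.0551% for sex by time. The cause of these moves was not tested.

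With each replicate left out in turn, the line difference of Sod1 ran from 0.111 to 0.232, the sex difference of Sod2 from -0.123 to -0.0114 and the Gclc interaction from -0.164 to -0.109. Without the third replicate, Sod1 (adjusted p = 0.149) and the interaction lost their calls, and Sod2 gained one (adjusted p = 0.0109). The share called ran from 0.0734% to 0.257% for the DGRP_892 rhythm, 1.8% to 5.71% for that of Canton-S B (0 to 2 list genes), 6.15% to 10.7% for line by sex, 0.0275% to 0.0643% for line by time and 0.0275% to 0.11% for sex by time. With the replicate number as a block, 0.22% of genes were called for sex by time in place of 0.376%, and no other count moved by over 1.5 times. No member changed its call for line, sex, their interaction or time under that block. The check of pairing by replicate number gave a mixed result. The median correlation of deviations was low, at 0.0587 for the same number and -0.0241 for others. However, 47 of 72 correlated best with their own number, more often than an even pick among the 3 numbers would give. The 3 libraries of a group came from 3 runs of the collection, and the main fits nevertheless treat the samples as unpaired. Of 435 results of named list genes under these alternatives, 386 kept direction and side of the threshold, 46 lost the call and 3 reversed.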
